A study of Mus musculus with 20 samples.

Results

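The nuclear genes for subunits of the 5 mitochondrial respiratory chain complexes were followed in amygdala and hippocampus of wild-type (WT) mice and of double knockout (DKO) mice that lack the Ca2+-stimulated adenylyl cyclases AC1 and AC8. Members were the rows of the array whose annotation gives exactly 1 gene symbol beginning with Nduf plus a subunit letter and number, Sdh plus a, b, c or d, Uqcr, Cox4 to Cox8, or Atp5, with Cox8b left out. The rule found 104 transcript clusters (the probe sets of this array, about 1 for each gene locus) among 28853, and these stood for 80 genes of 19938. Complex I had 37 clusters of 33 genes, complex II 4 of 4, complex III 11 of 8, complex IV 22 of 18 and complex V 30 of 17. The symbols matched no gene encoded by mitochondrial DNA.

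Transcripts were read from 20 arrays of the type Affymetrix Mouse Gene 1.0 ST, 1 for each combination of 2 brain regions, 2 genotypes and 5 time points, with the RNA of 5 to 10 mice combined on each. Micropunches of both sides were taken from male C57BL/6 mice 2 mo old. WT animals were C57Bl/6 mice that were not littermates of the mutants. DKO mice were Adcy1-/- Adcy8-/- and carried the tetop-AC8 transgene alone, the CaMKII-tTA transgene alone or neither, so that no rescue pair was present, and they came from matings kept on doxycycline until weaning. Tissue was collected before conditioned fear training (baseline), then 0 hr, 1 hr and 48 hr after a 5 min training trial with a single 2 sec, 0.7 mA foot shock, and lastly 1 wk later, when a 5 min testing trial preceded killing. Each condition was 1 pool, so the 5 time points of a group served as the replicates of its genotype and region, and whether the pools of both regions came from the same mice was not stated. In homogenized punches, fewer cells of a type and less RNA per cell cannot be told apart.

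Complex I passes electrons from NADH, and complex II from succinate, to ubiquinone; complex III hands them on to cytochrome c and complex IV to oxygen. The proton gradient built on the way drives ATP synthesis by complex V. Neurons depend on this chain for ion pumping and synaptic transmission, and most subunits are made in every cell, while a few subunits of complex IV exist as isoforms known from muscle, lung or testis. Nuclear respiratory factor 1 (NRF1), the ETS family factor GABPA and YY1 are known regulators of many of these nuclear genes.

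Promoter windows from RefSeq (GRCm38.p6), 300 bases around the annotated start, were matched for 65 of the 80 genes and searched on both strands for 1 spelling of each motif. The NRF1 core GCATGCGC was found in 10 of the 65 genes (15.4%) and in 3.05% of all 27025 genes with a window. The ETS letters CCGGAAG were found in 17 genes (26.2%) against 9.93% of all, and the YY1 letters AAGATGGC in 10 genes (15.4%) against 3.19%. At least 1 of the 3 motifs was present in 31 of the 65 genes (47.7%) and in 14.9% of all genes. None of the 3 spellings contains another, but the ETS and YY1 letters can share the stretch AAG. The NRF1 core nearly reads the same on both strands, so 1 stretch can match both ways. These spellings were chosen after others had been tried, and a match is only a match of letters. The windows below are those of Atp5pb (complex V stalk subunit b, chr3:105959214-105959513, minus strand) and Ndufs4 (an accessory subunit of complex I, chr13:114388045-114388344, minus strand), whose transcripts differed between regions as described below, and of Cox6a1 (the common isoform of complex IV subunit 6A, chr5:115348909-115349208, minus strand), which held both the NRF1 and the ETS letters. They are written 5′ to 3′ along the gene, with matches in capitals.
Atp5pb: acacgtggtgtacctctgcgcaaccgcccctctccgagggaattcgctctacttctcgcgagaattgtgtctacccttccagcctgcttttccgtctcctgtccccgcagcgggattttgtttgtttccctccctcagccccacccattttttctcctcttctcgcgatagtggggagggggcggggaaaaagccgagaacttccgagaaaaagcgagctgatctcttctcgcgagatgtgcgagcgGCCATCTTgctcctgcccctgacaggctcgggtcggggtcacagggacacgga
Ndufs4: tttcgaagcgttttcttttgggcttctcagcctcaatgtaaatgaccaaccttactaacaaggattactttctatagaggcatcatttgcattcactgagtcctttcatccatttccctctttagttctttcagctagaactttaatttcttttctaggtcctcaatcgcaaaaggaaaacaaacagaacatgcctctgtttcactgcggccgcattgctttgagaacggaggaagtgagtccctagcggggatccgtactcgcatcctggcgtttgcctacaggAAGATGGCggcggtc
Cox6a1: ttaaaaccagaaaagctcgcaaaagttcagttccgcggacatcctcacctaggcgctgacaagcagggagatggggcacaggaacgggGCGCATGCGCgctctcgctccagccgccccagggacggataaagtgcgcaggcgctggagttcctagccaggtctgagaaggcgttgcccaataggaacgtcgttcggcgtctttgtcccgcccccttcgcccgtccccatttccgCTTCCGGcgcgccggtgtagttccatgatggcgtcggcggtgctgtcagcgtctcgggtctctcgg
In the Atp5pb and Ndufs4 windows the capitals mark the YY1 letters, on the reverse strand in Atp5pb and on the forward strand in Ndufs4. In the Cox6a1 window the first run in capitals is the NRF1 core read on both strands and the second is the ETS letters on the reverse strand. The windows of Ndufa5 and Ndufa1, 2 other genes that differed between regions, held none of the 3 spellings.

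Respiratory chain transcripts were bright and steady on these arrays. Values are deposited log2 signals, and 96 of the 104 clusters had a 20-array mean above the level that bounds the top quartile of all clusters. The SD over the 20 arrays had a median of 0.11 on the log2 scale for the members, against 0.14 for all clusters and 0.15 for the top quartile, and 80 members lay below the median SD of all clusters. Among the steadiest were Atp5mpl, a small membrane proteolipid of complex V, with log2 signals from 12.20 to 12.42 (SD 0.053, n = 20), and Cox4i1, the common isoform of complex IV subunit 4, from 11.70 to 11.96 (SD 0.064, n = 20). The widest spread was that of Cox7a1, the heart and muscle isoform of subunit 7A, from 6.81 to 7.78 (SD 0.24, n = 20). For each complex, the clusters with the highest and lowest mean signal over 20 arrays (± SD) were Ndufc2 (11.77 ± 0.095) and Ndufc1 cluster 10406459 (8.06 ± 0.17) in complex I, both accessory subunits of the membrane arm. In complex II they were Sdha, the flavoprotein that oxidizes succinate (10.71 ± 0.086), and Sdhd, a membrane anchor (7.73 ± 0.097), and in complex III the hinge protein Uqcrh (11.87 ± 0.087) and Uqcr11 cluster 10359826 (8.58 ± 0.15). In complex IV they were Cox6c cluster 10428119 (12.97 ± 0.086) and the testis isoform Cox7b2 (5.21 ± 0.10), and in complex V Atp5j2, membrane subunit f (12.33 ± 0.076), and Atp5pb cluster 10500990 (9.46 ± 0.097). Signals of different probe sets are not comparable with each other, so these give the range of the signals and no order of abundance. The median SD by complex lay between 0.098 (complex II) and 0.13 (complex III).

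As a check on the material, Adcy1 and Adcy8 were lower on every DKO array than on every WT array of the same region. In amygdala, Adcy1 read 7.97 to 8.38 in WT and 7.51 to 7.77 in DKO, and Adcy8 6.94 to 7.26 and 5.46 to 5.89. In hippocampus, Adcy1 read 9.04 to 9.53 and 7.67 to 7.80, and Adcy8 7.14 to 7.66 and 5.22 to 5.79. The mean of 12 neuron markers was 10.36 to 10.70 on every array, and that of 8 muscle and blood markers 6.26 to 6.54, below all array medians of 6.64 to 6.83. Array pairs correlated at 0.983 to 0.997 over all clusters.

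The subunits moved as a block from array to array, and 2 arrays stood low. On the DKO amygdala array at 48 hr only 5 of 104 members were above their own 20-array mean (4.81%), and 69 of the 104 had their lowest value there. That array was low for other transcripts too, with 32.1% of all clusters and 6.60% of the top quartile above their own means, and cytosolic ribosomal protein transcripts had their lowest mean there as well. On the WT hippocampus array at baseline 5 members were likewise above their own mean (4.81%, against 37.7% of all clusters and 22.6% of the top quartile), and 22 members had their lowest value there. The counts of lowest values were not set beside a share of all clusters. At the high end stood the DKO hippocampus at baseline, with 89 members above their own mean (85.6%, against 52.4% of all clusters and 63.1% of the top quartile). The WT amygdala at baseline had 88 (84.6%, against 48.5% and 76.9%), and the DKO amygdala at 1 wk 86 (82.7%, against 55.9% and 59.9%). The mean over all members was 10.36 ± 0.047 in WT amygdala, 10.28 ± 0.11 in DKO amygdala, 10.33 ± 0.077 in WT hippocampus and 10.39 ± 0.033 in DKO hippocampus (SD, n = 5 arrays each). Each of these arrays is 1 pool, and whether the cause lies in the tissue, the pool or the array was not tested.

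**Figure D1:**
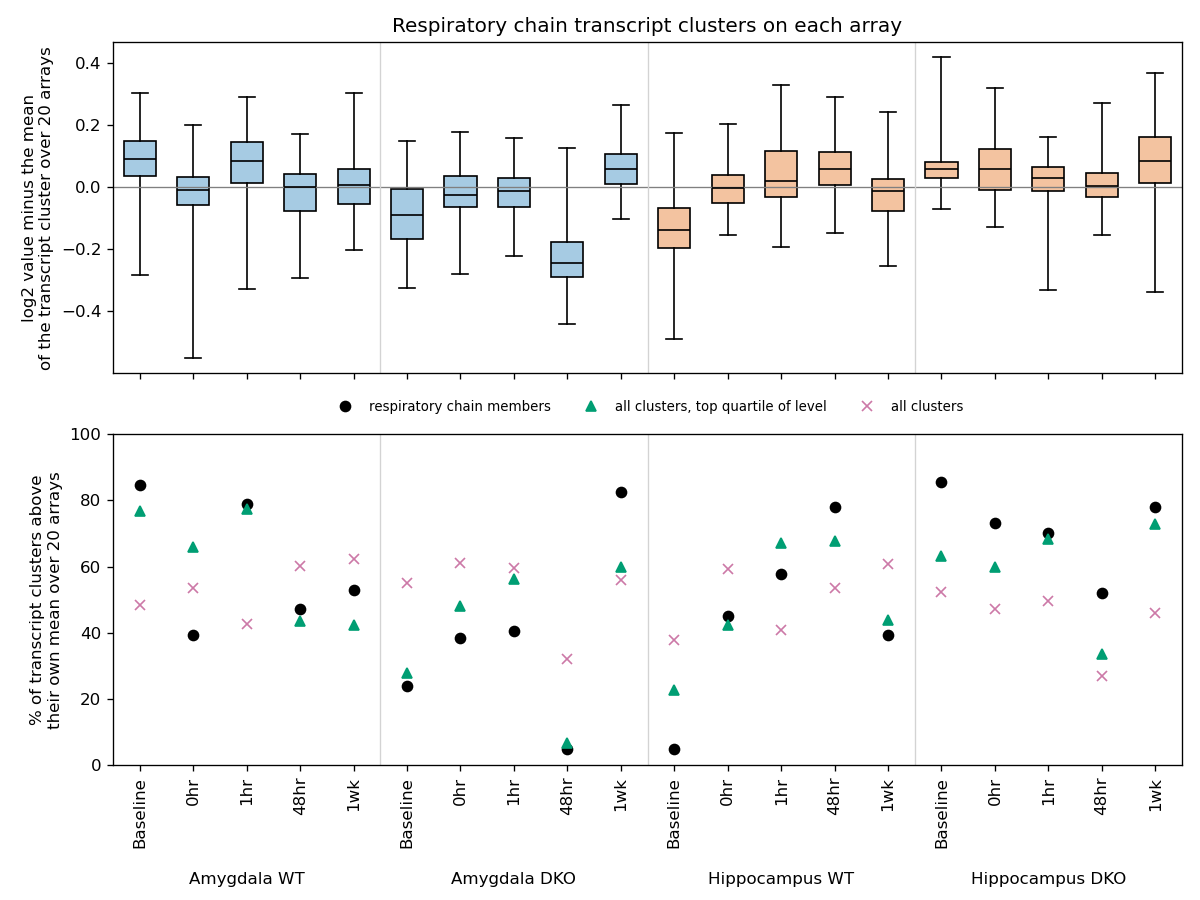
Respiratory chain transcripts on each of the 20 arrays. The upper panel shows, for each array, boxes of the members' log2 deviation from their own 20-array mean (whiskers from lowest to highest), and the lower panel the percent of members, of the top quartile and of all clusters above their own mean. The DKO amygdala array at 48 hr and the WT hippocampus array at baseline stand lowest, each with 4.81% of members above their mean.

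Between regions, few subunits differed. With group and time point in the limma fit over 20 arrays, 5 of 104 members (4.81%) passed an adjusted p of 0.05, all lower in amygdala than in hippocampus, where 17.6% of all clusters passed (2485 higher and 2600 lower in amygdala). At an unadjusted p under 0.05 there were 25 of 104 members, 6 higher and 19 lower, beside 28.5% of all clusters. The 5 were Ndufa5, Ndufa1, Ndufs4 and Ndufs1 of complex I and Atp5pb of complex V, and each was lower in amygdala in 9 of 10 conditions matched for genotype and time.

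Ndufa5, an accessory subunit of the matrix arm of complex I, had log2 signals in amygdala of 11.65, 11.59, 11.62, 11.61 and 11.58 in WT and 11.60, 11.62, 11.62, 11.38 and 11.64 in DKO (baseline, 0 hr, 1 hr, 48 hr and 1 wk). In hippocampus it read 11.63, 11.75, 11.83, 11.83 and 11.75 in WT and 11.79, 11.87, 11.84, 11.62 and 11.80 in DKO. Most hippocampal arrays were thus above most amygdala arrays, but the regions overlapped through the WT baseline and DKO 48 hr arrays of hippocampus. The difference was -0.18 (SE 0.045, limma adjusted p = 0.00661). Atp5pb encodes subunit b of the peripheral stalk that holds the catalytic head of the ATP synthase in place. Its cluster 10386005 ranged from 10.88 through a median of 11.12 to 11.25 in amygdala and from 11.14 through 11.34 to 11.44 in hippocampus (n = 10 each), a difference of -0.20 (SE 0.050, adjusted p = 0.00746). Within DKO every amygdala array, at most 11.21, was below every hippocampal array, at least 11.23, whereas the WT arrays overlapped. The other Atp5pb cluster, 10500990, had a difference of -0.084 (adjusted p = 0.233), so the call rests on 1 of 2 clusters, and whether they report the same transcript was not tested.

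The 3 other complex I subunits differed by a similar amount. Ndufa1, an accessory subunit of the membrane arm, read 11.33 to 11.65 in amygdala (median 11.55) and 11.58 to 11.75 in hippocampus (median 11.66), a difference of -0.13 (SE 0.043, adjusted p = 0.0342). Ndufs4, an accessory subunit of the matrix arm, read 10.93 to 11.36 (median 11.18) and 11.15 to 11.44 (median 11.33), a difference of -0.15 (SE 0.048, adjusted p = 0.0364). All 3 had overlapping regions, and their lowest amygdala value was the DKO array at 48 hr. Ndufs1, the core subunit with iron-sulphur clusters in the NADH-oxidizing arm, read 9.94 to 10.53 (median 10.29) and 10.24 to 10.60 (median 10.48), a difference of -0.17 (SE 0.057, adjusted p = 0.0397).

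These calls did not all stand on the same footing. Ndufa5 and Atp5pb passed in each of 20 fits that left out 1 array (highest adjusted p 0.0177 and 0.0203), whereas Ndufs1 and Ndufs4 missed the threshold in 13 of the 20 and Ndufa1 in 11, with adjusted p up to 0.087. With genotype and time as a block, which pairs the regions, the 4 clusters called belonged to Ndufa5, Atp5pb and Uqcrb, an accessory subunit of complex III, and the calls of Ndufa1 (adjusted p = 0.0516), Ndufs1 (0.0612) and Ndufs4 (0.0694) were lost. The count of members fell to 2 without the WT amygdala or WT hippocampus array at 0 hr, the DKO hippocampus array at 0 hr, the WT hippocampus array at 1 hr or the DKO hippocampus array at 1 wk, and to 3 without the DKO amygdala array at baseline or 1 hr, the DKO hippocampus array at baseline or the WT amygdala array at 48 hr. Where the count fell to 2, 2300 to 2494 of all clusters were lower and 2081 to 2283 higher. Without the DKO amygdala array at 48 hr it was 9, 2 lower and 7 higher in amygdala (2273 and 2910 of all clusters). The direction of the calls also depended on scaling, since 5 members were lower and 8 higher after a further quantile normalization (13 in all). After median centring 8 were lower and 0 higher. Over all clusters 3213 were lower and 2977 higher after the former, and 3045 and 2111 after the latter, against 2600 and 2485 as deposited. The 8 higher ones after quantile normalization were Atp5d, Atp5j2, Ndufa2, Ndufb7, Ndufs8, Sdhb, Uqcr11 and Uqcrc1. In the fit as deposited the nearest of these were Atp5d, the delta subunit of the ATP synthase central stalk, with 0.16 (adjusted p = 0.0563), Sdhb, the iron-sulphur subunit of complex II, with 0.15 (adjusted p = 0.0642), and Ndufb7 with 0.12 (adjusted p = 0.0648).

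Across complexes the region differences were small. The median over the members was -0.028 (0.0030 after a further quantile normalization, and -0.045 to -0.0068 when each array was left out, the latter without the DKO amygdala array at 48 hr), against 0.021 over all clusters and -0.026 over the top quartile, with 34 differences above 0 and 70 below. By complex the medians were -0.020 for complex I, 0.0082 for II, -0.0056 for III, -0.034 for IV and -0.075 for V. Of the 104 confidence intervals at 95%, 91 lay wholly within 1.2-fold in either direction, and none reached beyond 1.30-fold lower or 1.23-fold higher in amygdala.

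**Figure D2:**
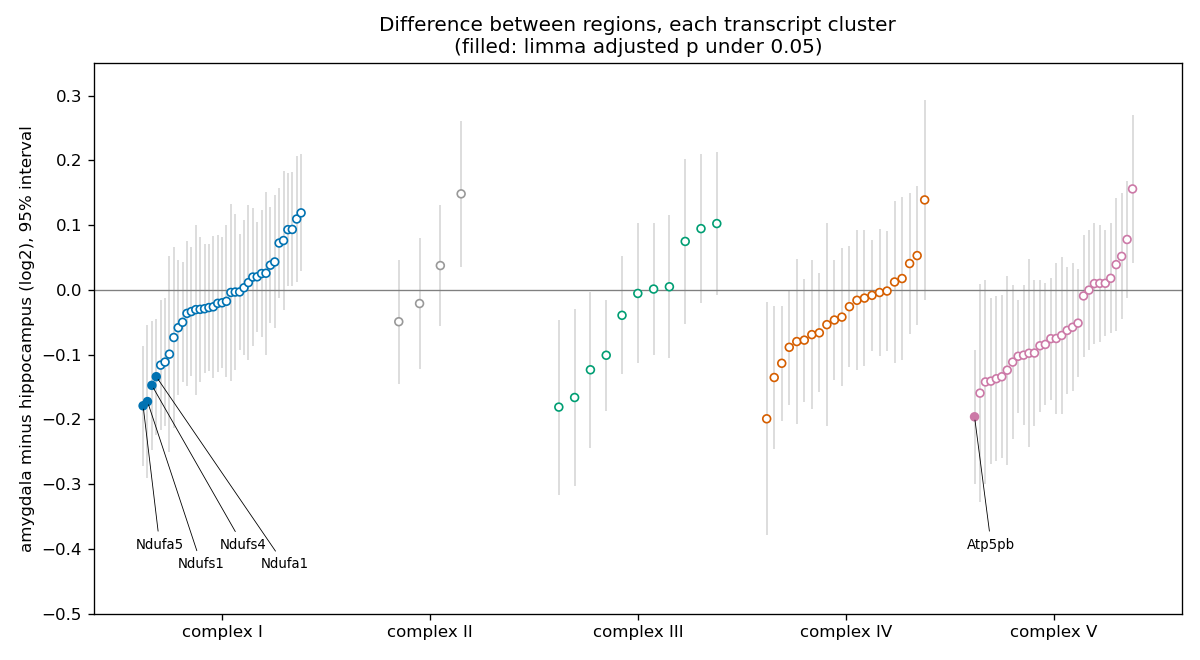
Amygdala minus hippocampus for the 104 transcript clusters, by complex, as log2 difference with its 95% confidence interval from the limma fit over 20 arrays. Filled points mark the 5 clusters with adjusted p under 0.05 (Ndufa5, Atp5pb, Ndufa1, Ndufs4 and Ndufs1, differences of -0.20 to -0.13), and most intervals cross 0.

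The regions were also set against each other within each genotype, by counting clusters whose 5 arrays of one region all lay beyond the 5 of the other. In WT, 6 members were higher on every amygdala array (5.77%, against 5.87% of all clusters) and 0 were lower (3.34% of all). The 6 were Ndufa2, Ndufb7 and Ndufs8 of complex I, Uqcrc1 of complex III, and Atp5j2 and Atp5k of complex V. In DKO, 9 clusters were lower on every amygdala array (8.65%, against 6.87% of all), namely Ndufb2, Ndufb8, Ndufs1, Ndufs4 and both clusters of Ndufs3 in complex I, Uqcrfs1 in complex III, Cox7a2l in complex IV and Atp5pb in complex V, and 0 were higher (6.61% of all). No member appeared both among the 6 and among the 9. The shares of 5.77% and 8.65% lay near those of all clusters, while the counts of 0 stood beside 3.34% and 6.61% of all.

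Whether loss of AC1 and AC8 changed the chain was asked within each region, with 5 DKO arrays against 5 WT arrays and the study's limit of 0.1 for adjusted p. In amygdala 0 of 104 members passed, against 0.097% of all clusters (1 higher and 27 lower in DKO); 4 members had an unadjusted p under 0.05, all with values below 0, and 6.82% of all clusters did. The methods' own test called 0 members as well. The lowest adjusted p was 0.646. The differences were nonetheless one-sided, as 97 of 104 were below 0 with a median of -0.089 (0.00077 after a further quantile normalization, and -0.049 without the DKO amygdala array at 48 hr), against -0.013 over all clusters and -0.11 over the top quartile. Values were below 0 for 37 of 37 clusters of complex I, 3 of 4 of complex II, 11 of 11 of complex III, 17 of 22 of complex IV and 29 of 30 of complex V. The mean of striatal neuron markers was 9.23 to 9.95 on the WT amygdala arrays and 9.05 to 9.31 on the DKO ones. Its part in the genotype values was not tested.

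In hippocampus 0 of 104 members passed too, against 0.118% of all clusters (5 higher and 29 lower in DKO), the methods' test called 0, and 9 members had an unadjusted p under 0.05 (8 with values above 0), where 11.4% of all clusters did. Here 90 of 104 differences were above 0, with a median of 0.065 (0.036 after a further quantile normalization, and 0.028 without the WT hippocampus array at baseline), against -0.018 over all clusters and 0.041 over the top quartile. They were above 0 for 34 of 37 clusters of complex I, 1 of 4 of complex II, 11 of 11 of complex III, 16 of 22 of complex IV and 28 of 30 of complex V. The intervals bounded the genotype effect at 1.31-fold lower to 1.27-fold higher in amygdala and at 1.29-fold lower to 1.34-fold higher in hippocampus over all members.

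Ndufb2 and Ndufb3, accessory subunits of the membrane arm of complex I, showed the contrast between regions most clearly. Ndufb2 read 9.16, 9.08, 9.36, 9.01 and 9.16 in WT amygdala and 8.87, 9.01, 8.99, 8.86 and 9.10 in DKO amygdala, a difference of -0.19. In hippocampus it read 8.78, 8.98, 9.06, 9.13 and 8.83 in WT and 9.17, 9.16, 9.13, 9.15 and 9.40 in DKO, a difference of 0.25. DKO arrays were thus mostly low in amygdala and high in hippocampus, with the genotypes overlapping in amygdala and meeting at 9.13 in hippocampus. Ndufb3 read 8.98, 8.84, 8.97, 8.90 and 8.85 in WT amygdala and 8.59, 8.78, 8.71, 8.49 and 9.01 in DKO amygdala, a difference of -0.20. In hippocampus it read 8.45, 8.67, 8.82, 8.92 and 8.74 in WT and 8.87, 9.07, 8.91, 9.03 and 8.95 in DKO, a difference of 0.25. Neither passed the test in either region.

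Complete separation of the genotypes was rare. In amygdala 0 members were higher or lower on all DKO arrays (0.312% and 0.551% of all clusters). In hippocampus 2 were higher on all DKO arrays (1.92%, against 0.645% of all clusters) and 0 lower (1.08% of all). The 2 were Ndufs8, a core subunit with iron-sulphur clusters, at 8.75 to 8.98 in WT and 9.01 to 9.14 in DKO (difference 0.17), and Uqcr10, an accessory subunit of complex III, at 10.07 to 10.31 in WT and 10.32 to 10.40 in DKO (difference 0.15). Neither passed the adjusted test.

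The difference of the genotype effects, hippocampus minus amygdala, was tested over all 20 arrays. None of the 104 members passed an adjusted p of 0.05 (0 called by limma, against 0.0104% of all clusters), and 21 had an unadjusted p under 0.05, 19 of them with values above 0, where 17.4% of all clusters did. The values were above 0 for 99 of 104 members, with a median of 0.16 (0.037 after a further quantile normalization), against -0.0045 over all clusters and 0.15 over the top quartile. Ndufb2 (0.44, SE 0.11) and Ndufb3 (0.44, SE 0.12) were highest, and the lowest adjusted p among members was 0.241. Transcripts outside the chain had like medians, with 0.16 over 85 clusters of mitochondrial ribosomal proteins, 0.13 over 222 of cytosolic ribosomal proteins and 0.13 over 19 of the tricarboxylic acid cycle, while the chemoreceptor and keratin-associated families had -0.11. The DKO amygdala array at 48 hr and the WT hippocampus array at baseline, the 2 low arrays, both enter this contrast. The median over members was 0.11 without the first, 0.13 without the second and 0.078 without both, a setting chosen after the data were seen, and 0 members were called without both.

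**Figure D3:**
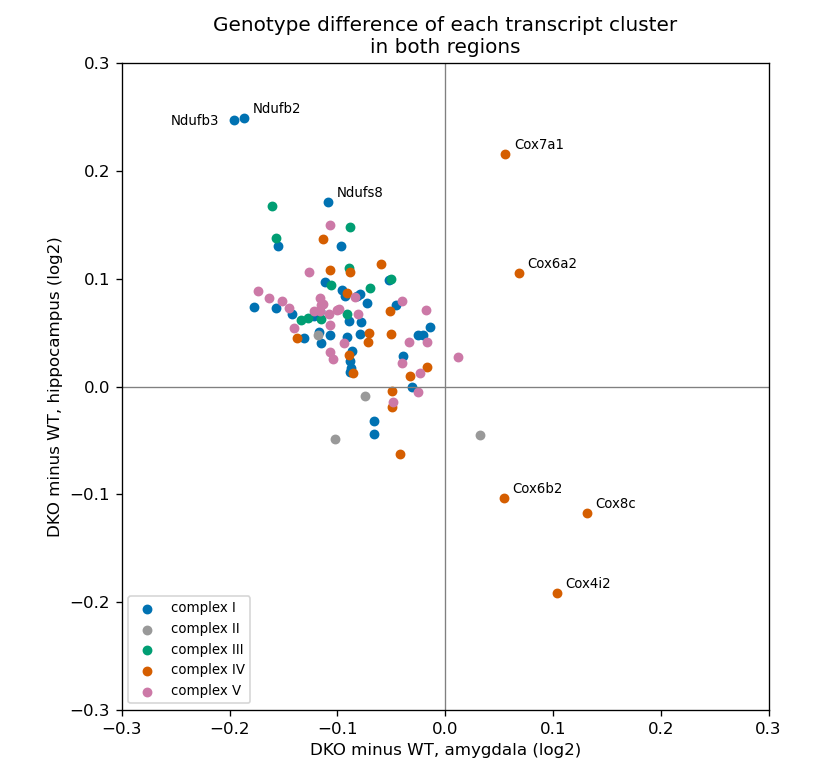
DKO minus WT in amygdala (horizontal axis) against DKO minus WT in hippocampus (vertical axis), both as log2 differences, 1 point for each of the 104 transcript clusters. Before any further scaling 97 points lie left of 0 and 90 above 0 (the amygdala median is 0.00077 after a further quantile normalization), and no cluster passed the adjusted test in either region.

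Genes on the chromosomes of the disrupted cyclases were looked at on their own, since DNA flanking a targeted gene can differ between mutants and WT mice. Uqcr10, Uqcrq, Atp5g1 and Atp5h lie on the chromosome of Adcy1 and Cox6c, Ndufb9, Ndufa6 and Atp5g2 on that of Adcy8. Their DKO minus WT values were -0.12 to -0.033 in amygdala and 0.0097 to 0.15 in hippocampus, within the range of the other members, and none passed the test.

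Time after training was first compared with baseline over all 4 groups. Of the 104 members 0 passed the limma test for 0 hr (0.00347% of all clusters), for 1 hr (0.0243%), for 48 hr (0%) or for 1 wk (0.00347%). An unadjusted p under 0.05 was found for 0, 1, 0 and 1 members, beside 2.58%, 6.16%, 3.59% and 3.12% of all clusters. The median over members was 0.031, 0.056, -0.024 and 0.051 at the 4 times, beside 0.026, 0.0021, -0.028 and 0.030 over all clusters. The difference between genotypes in these changes passed for 0 members and 0% of all clusters at each time. Its unadjusted p was under 0.05 for 4, 0, 4 and 10 members, beside 5.1%, 1.92%, 13.1% and 17.9% of all clusters. At 48 hr that difference was below 0 for 101 of 104 members, with a median of -0.14, but -0.15 over all clusters.

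The late arrays (48 hr and 1 wk, 2 per group) were next set against the early ones (baseline, 0 hr and 1 hr, 3 per group). In WT amygdala, where 2.9% of all clusters passed (596 higher and 241 lower late), 0 of 104 members passed; 7 had an unadjusted p under 0.05, where 25.9% of all clusters did, and the lowest adjusted p was 0.114, for Atp5md, a small membrane subunit of complex V (-0.33). The median over members was -0.059, against 0.045 over all clusters and -0.12 over the top quartile. Without the WT amygdala array at 0 hr the count was 2. In DKO amygdala 0 members and 0% of all clusters passed, with 1 member at an unadjusted p under 0.05 against 6.93% of all. The genotype difference in this change passed for 0 members against 0.374% of all clusters. For that difference 1 member had an unadjusted p under 0.05, against 21% of all. In hippocampus 0 members and 0% of all clusters passed in WT, in DKO and in the difference between them. There 0, 0 and 2 members had an unadjusted p under 0.05, against 3.45%, 6.23% and 4.97% of all clusters. Among striatal neuron markers, Pde10a (-0.84), Rgs9 (-0.80) and Tac1 (-0.78) were called lower late in WT amygdala. Pde10a (1.04) and Rgs9 (1.10) also passed in the genotype difference of amygdala. The striatal list mean in WT amygdala was 9.95, 9.55 and 9.90 early and 9.28 and 9.23 late. It was 9.05 to 9.31 in DKO amygdala, and its part in the member values was not tested.

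Single arrays were also set against the baseline array of their own group, as the study did, at 1.5-fold and with no test because each side is 1 array. In none of the 16 comparisons did a member pass 1.5-fold, 0 of 1664 values, whereas 1.15% of all values did. In WT amygdala the shares of all clusters past 1.5-fold were 0.912%, 0.579%, 3.32% and 4.1% for the 0 hr, 1 hr, 48 hr and 1 wk arrays. In WT hippocampus they were 0.319%, 1.11%, 1.24% and 0.627%, in DKO amygdala 0.825%, 0.575%, 1.42% and 1.27%, and in DKO hippocampus 0.246%, 0.395%, 0.6% and 0.932%. At 1.2-fold 159 member values passed (9.56%), against 16.9% of all values.

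The changes from baseline ran in blocks. In WT hippocampus the median over members was 0.14, 0.18, 0.21 and 0.11 in time order, with 93, 95, 96 and 92 of 104 members above baseline, and the shared baseline there was the low array described above. In WT amygdala, whose baseline array was a high one, the medians were -0.11, -0.0095, -0.089 and -0.090. In DKO amygdala they were 0.081, 0.084, -0.14 and 0.16, and in DKO hippocampus 0.0012, -0.029, -0.059 and 0.035. Over the top quartile the medians were 0.084, 0.16, 0.16 and 0.086 in WT hippocampus and -0.042, 0.011, -0.12 and -0.13 in WT amygdala. They were 0.086, 0.10, -0.17 and 0.12 in DKO amygdala and 0, 0.018, -0.079 and 0.0555 in DKO hippocampus. In most comparisons the members and the top quartile thus moved the same way. The widest single changes above baseline were Cox6a2 at 1 wk in WT hippocampus (0.55), Cox4i2 at 1 wk in WT amygdala (0.52), the Uqcr11 cluster 10359826 at 48 hr (0.51), the Atp5h cluster 10359297 at 1 hr (0.48) and Ndufb3 at 48 hr (0.47), the last 3 in WT hippocampus. Those below baseline were Cox6b2 at 0 hr and 1 hr in WT amygdala (-0.55 and -0.49), Cox6a2 at 1 wk in DKO hippocampus (-0.50), and the Ndufc1 cluster 10406459 (-0.50) and Atp5md cluster 10572813 (-0.46) at 48 hr in WT amygdala. Restricted isoforms of complex IV, 7 of the 104 clusters, made up 5 of these 10 changes. All 5 came from Cox6a2, Cox6b2 and Cox4i2, and the changes of Cox6b2 share the same baseline array. Mean signals over all arrays were 7.77 for Cox6a2, 7.37 for Cox6b2 and 6.68 for Cox4i2. The median of such means over all members was 10.51, and the array medians were 6.64 to 6.83. Whether low signal widened these changes was not tested.

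Of the complex IV genes, 7 encode isoforms known from restricted tissues, and they were described apart from the 97 common clusters. These are Cox4i2 (lung and hypoxia-linked), Cox6a2 and Cox7a1 (heart and muscle), Cox6b2, Cox7b2 and Cox8c (testis), and Ndufa4l2 (hypoxia-induced). Their SDs over 20 arrays had a median of 0.17, against 0.11 for the common clusters and 0.14 for all clusters. Those of Cox7b2 (0.10), Ndufa4l2 (0.11) and Cox8c (0.13) lay below the last of these. Spread was not compared at a matched signal level, and the isoforms had low signals. None passed the region test or the genotype test in either region in the main fits. Without the WT amygdala array at 1 wk, Cox7a1 was called lower in amygdala than in hippocampus. Cox7a1 read 7.27, 6.81, 7.21, 7.24 and 7.64 in WT amygdala, 7.36, 7.08, 7.47, 6.98 and 7.56 in DKO amygdala, 7.31, 7.44, 7.55, 7.22 and 7.26 in WT hippocampus and 7.78, 7.62, 7.42, 7.63 and 7.40 in DKO hippocampus. Its amygdala values varied from array to array by more than the regions differed (-0.20, adjusted p = 0.128), and all 4 groups overlapped.

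Cox6a2 and Cox4i2 replace common subunits in the tissues they are known from. Cox6a2 read 7.71, 7.94, 7.56, 7.89 and 7.92 in WT amygdala, 7.92, 7.95, 7.92, 7.80 and 7.78 in DKO amygdala, 7.28, 7.72, 7.68, 7.72 and 7.83 in WT hippocampus and 7.93, 7.72, 7.80, 7.87 and 7.43 in DKO hippocampus. The low values were the WT hippocampus at baseline and the DKO hippocampus at 1 wk, and the genotype difference in the change at 1 wk was -0.70 (SE 0.17, adjusted p = 0.167). Cox4i2 read 6.39, 6.73, 6.41, 6.73 and 6.91 in WT amygdala, 6.72, 6.80, 6.63, 6.63 and 6.92 in DKO amygdala, 6.63, 6.88, 6.51, 6.89 and 6.92 in WT hippocampus and 6.72, 6.55, 6.55, 6.56 and 6.49 in DKO hippocampus, overlapping in all groups, and its DKO minus WT value in hippocampus was -0.19.

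In the late minus early comparison of WT amygdala, where 27 of 97 common clusters had values above 0, all 7 restricted isoforms did, with a median of 0.25, but none passed the test. Cox7a1 (0.35), Cox6b2 (0.32), Cox4i2 (0.31, adjusted p = 0.142) and Cox8c (0.25) had the widest values. On the same arrays the chemoreceptor and keratin-associated families, known from sensory epithelia and hair, had a median of 0.12. In WT amygdala the mean of 8 muscle and blood markers was 6.35, 6.40 and 6.35 on the early arrays. It was 6.48 and 6.54 on the late ones, above every early array, and between 6.26 and 6.54 over all arrays. The mean of 5 interneuron markers (Pvalb, Kcnc1, Erbb4, Gad1 and Gad2) ran from 8.42 to 8.93 over all arrays. That of 8 choroid plexus markers ran from 7.31 to 9.12. The part of these cell types in the isoform values was not tested.

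**Figure D4:**
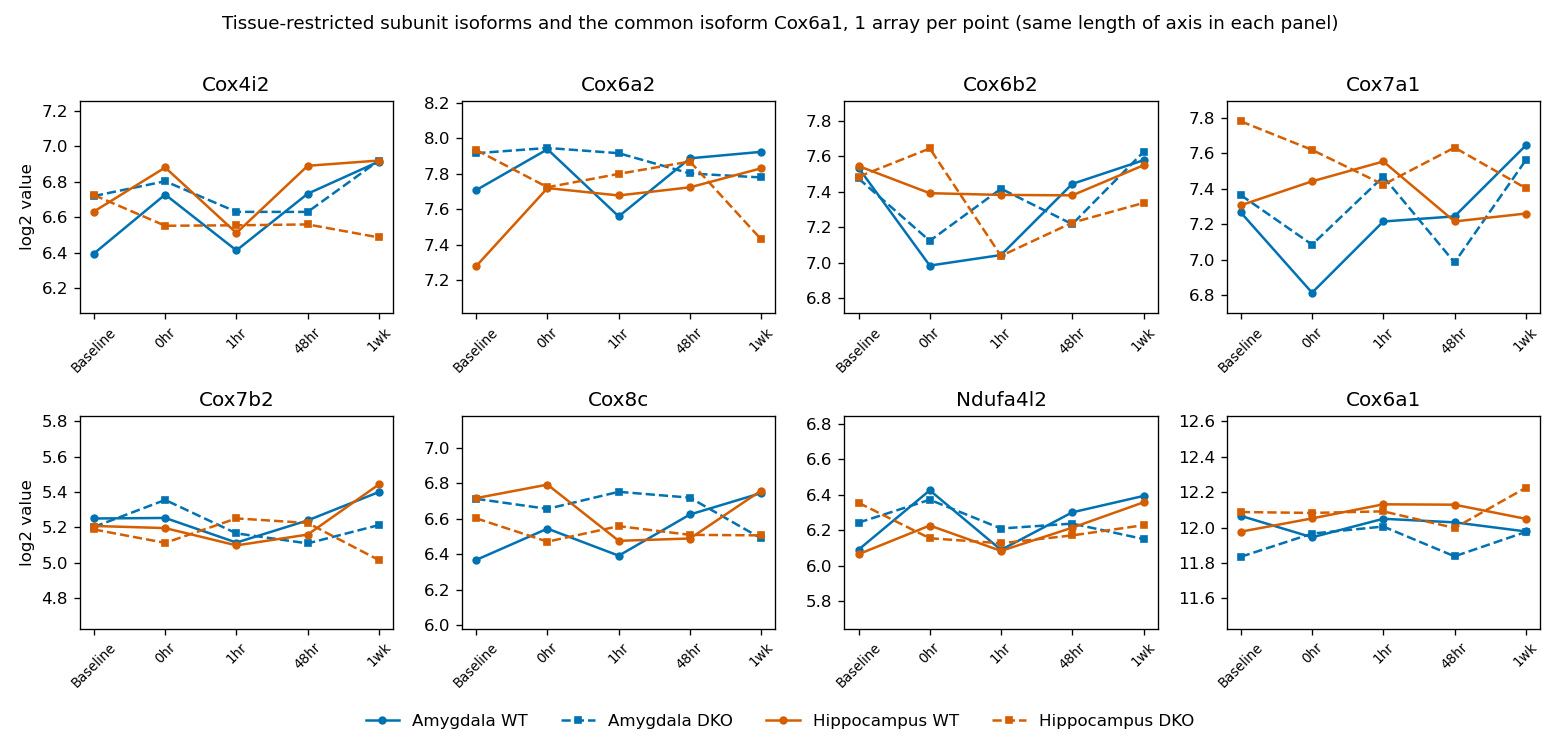
Log2 signal of the 7 restricted isoforms and of the common isoform Cox6a1 at the 5 time points, 1 line for each of the 4 groups and 1 array for each point. The lines of the restricted isoforms cross within a narrow range, as for Cox7a1 between 6.81 and 7.78, with no group apart from the others at every time.

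The other restricted isoforms overlapped between all groups as well. Cox6b2 read 6.98 to 7.58 in WT amygdala, 7.12 to 7.63 in DKO amygdala, 7.38 to 7.55 in WT hippocampus and 7.04 to 7.64 in DKO hippocampus. Its low arrays were those at 0 hr and 1 hr in WT amygdala (6.98 and 7.04), at 0 hr in DKO amygdala (7.12) and at 1 hr in DKO hippocampus (7.04). Cox8c read 6.37 to 6.75 in WT amygdala and 6.47 to 6.60 in DKO hippocampus, with DKO minus WT values of 0.13 in amygdala and -0.12 in hippocampus. Cox7b2 stayed between 5.02 and 5.44 on all arrays and Ndufa4l2 between 6.06 and 6.43, with region values of 0.041 and 0.053.

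The common partners of these isoforms, which neurons use, were not called in any comparison of the main fits either. Cox6a1 was called lower in amygdala after median centring, with a variance trend and robust fit, and without the WT amygdala array at baseline. In subunit 4, Cox4i1 had an amygdala minus hippocampus value of -0.0085 and DKO minus WT values of -0.085 in amygdala and 0.013 in hippocampus. In subunit 6A, Cox6a1 read 11.83 to 12.07 in amygdala and 11.98 to 12.22 in hippocampus, a region value of -0.11 (adjusted p = 0.073) in overlapping groups. In subunit 6B, Cox6b1 had -0.013 between regions, -0.092 for genotype in amygdala and 0.087 in hippocampus. Of these, the genotype values turned from below 0 in amygdala to above 0 in hippocampus for Cox4i1, Cox6a1 (-0.090 and 0.029) and Cox6b1.

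Subunit 6C has a single gene, whose clusters had region values of -0.14 and -0.078. It was called lower in amygdala after median centring, with a variance trend and robust fit, and without the WT hippocampus array at baseline. In subunit 7A, Cox7a2 had -0.069 between regions, -0.11 for genotype in amygdala and 0.11 in hippocampus, and Cox7a2l, a related protein that helps to join complexes into supercomplexes, had region values of -0.066 and -0.089 on its clusters. Cox7b had -0.026 and -0.042, Cox8a -0.0018, and Ndufa4, a complex IV subunit first assigned to complex I, -0.047 between regions, -0.049 for genotype in amygdala and -0.019 in hippocampus. The 3 genes that encode the same c-ring subunit of ATP synthase were not called, with region values of -0.086 and -0.058 for the clusters of Atp5g1, from -0.0094 to 0.010 for those of Atp5g2 and of 0.018 for Atp5g3. In all, 16 genes had more than 1 cluster, and the clusters of a gene differed by a median of 0.028 in the region comparison and by at most 0.11 (Atp5pb). Processed copies of such genes are common in the mouse genome, and signal from a gene and from a near-identical copy cannot be told apart on the array.

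Genes that build or serve the chain were examined beside the subunits. Of 47 clusters of assembly factors 8 passed the region test, 3 higher and 5 lower in amygdala. All clusters passed at 17.6% (2485 higher and 2600 lower), a share near that of this list and the one to read the counts below against. Lower were Uqcc1, which helps to assemble complex III (-0.25, SE 0.070, adjusted p = 0.0154), Cox15, needed for heme a synthesis (-0.22, SE 0.054, adjusted p = 0.00492), Ndufaf4 (-0.19) and both clusters of Atpaf1. Higher were Bcs1l, which inserts the Rieske protein into complex III (0.23), Ndufaf7 (0.21) and Ndufaf5 (0.15). Of 18 clusters for cytochrome c and coenzyme Q synthesis 3 were higher (Coq8b 0.26, Coq4 0.17, Coq3 0.13) and 0 lower. Of 27 carrier and import clusters Tomm70a, an import receptor, was higher (0.27) and both clusters of Slc25a5, an ADP/ATP carrier, were lower. Mitochondrial ribosomal proteins had 6 higher and 4 lower of 85, and the tricarboxylic acid cycle 1 lower of 19, the dehydrogenase component Dlst (-0.18).

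Of 20 clusters of glycolysis genes 6 were higher in amygdala and 0 lower, where 17.6% of all clusters passed in either direction. Among the 6 were Ldha, lactate dehydrogenase A (0.45, SE 0.045), Pfkp, platelet phosphofructokinase (0.41, SE 0.044), and Tpi1, triosephosphate isomerase (0.22). Of 20 clusters of regulators of mitochondrial biogenesis 1 was higher and 4 were lower, beside the same 17.6% of all clusters. Tfam, the factor that packages and transcribes mitochondrial DNA, was lower in amygdala (-0.25, SE 0.066, adjusted p = 0.0102), as were Gabpa (-0.26, SE 0.071, adjusted p = 0.013), its partner Gabpb2 (-0.33) and the polymerase subunit Polg2 (-0.21). The coactivator Ppargc1a was higher on 1 of its 2 clusters (0.18, adjusted p = 0.0465) and not called on the other (0.098, adjusted p = 0.466), and neither Nrf1 (-0.090, adjusted p = 0.196) nor Esrra (0.027, adjusted p = 0.87) was called. None of these lists had a member past the genotype test in either region.

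The regions also differed in markers of cell types, read here against the 17.6% of all clusters that passed. Oligodendrocyte markers were lower in amygdala for 7 of 9 clusters, astrocyte markers for 5 of 11, endothelial markers for 4 of 7 and thalamic markers for 5 of 6, while striatal neuron markers were higher for 7 of 7 and neuron markers higher for 5 and lower for 2 of 12. In the same comparison 0 of 9 microglia and 0 of 8 choroid plexus markers passed. Of the interneuron markers, Pvalb was lower (-0.87), while Gad1 (0.34), Erbb4 (0.74) and Gad2 (0.79) were higher. The part of cell composition and of dissection in the differences of the 5 respiratory chain transcripts was not tested.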

How the data were processed

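RNA of pooled mice was hybridized to 20 arrays. The authors computed the deposited log2 values from the scans with RMA in Affymetrix Expression Console, which subtracts background, quantile-normalizes and summarizes probes; the genome build of the array annotation was not given in the sources used here. RMA narrows changes near background and tends to shrink shifts shared by most transcripts. All 28853 transcript clusters were fitted with limma 3.58.1 in R 4.3.3, with no filter, and p-values were adjusted by Benjamini-Hochberg over all of them. Genotype was tested within region (5 against 5 arrays, adjusted p limit 0.1, as in the methods). Region, time against baseline and the interactions of genotype with these were tested over 20 arrays (limit 0.05). Late minus early and its genotype difference were tested on the 10 arrays of each region (limit 0.05). P-values measure the spread between pooled arrays, and no condition had a second pool. In the genotype tests within region that spread includes any change between time points. For time against baseline it includes any difference between groups in the change. Array signal carries no read depth, so the number of arrays limits the precision. Of the clusters, 21789 had 1 symbol, 1621 several and 5443 none, and only those with 1 could be members. Members, gene lists and motif spellings were chosen with earlier results of these data known. Named by rule were the 5 largest called members in each direction, the highest and lowest mean of each complex, the complex IV and c-ring isoform families, the 5 largest single-array changes in each direction, up to 3 called genes a direction of the other lists, and 5 regulators; other genes were named after their values were seen. The functions were tested on simulated data. Alternatives were median centring or a further quantile normalization, a filter on low values, a robust fit with a variance trend, genotype and time as a block, the methods' test, other folds and leaving out each array. Figures were drawn with Python 3.11.15 and matplotlib 3.10.9.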

Additional observations from a re-analysis of the deposited data

Results flagged for a closer look

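Among 232 sets of 5 arrays examined, 10 had 1 array far from the other 4 by Dixon's criterion. Chance gives this in about 1 of 20 sets taken without regard to their values. The sets here were of 50 named clusters and of summary means. Some of these clusters were named for wide single-array changes or after their values were seen, so that rate cannot be applied to them. In DKO amygdala the 48 hr array was lowest by a wide gap for the mean of complex II (9.28, others 9.48 to 9.54), Atp5j2 (12.16, others 12.38 to 12.46), the Atp5pb cluster 10500990 (9.17, others 9.45 to 9.49), the Cox6c cluster 10428119 (12.72, others 12.94 to 13.03) and Ndufa5 (11.38, others 11.60 to 11.64). In WT hippocampus the baseline array was lowest for Cox6a2 (7.28, others 7.68 to 7.83). In DKO hippocampus the 0 hr array was lowest for 2 clusters of Atp5g2 (9.80, others 9.88 to 9.91, and 9.95, others 10.01 to 10.03), and the 1 wk array was highest for Cox7a2 (11.45, others 11.28 to 11.32) and Ndufb2 (9.40, others 9.13 to 9.17).

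Some changes from baseline ran in opposite directions in 2 groups at all 4 later times. These differences were not tested, and the 4 changes of a group share 1 baseline array. In WT amygdala the member mean changed by -0.099 to -0.015 and in WT hippocampus by 0.12 to 0.20, so that the mean changes differed by 0.23. Median changes over the top quartile of all clusters were -0.13 to 0.011 in WT amygdala and 0.084 to 0.16 in WT hippocampus. WT amygdala and WT hippocampus also differed by 0.26 for the mean of complex I, 0.31 for complex III and 0.24 for the common subunits. Between these groups the difference was 0.43 for Ndufb3, 0.63 for the Ndufc1 cluster 10406459 and 0.48 for the Uqcr11 cluster 10359826. DKO amygdala differed from WT amygdala by 0.58 for that Ndufc1 cluster and by 0.30 for that Uqcr11 cluster. DKO hippocampus differed from WT hippocampus by -0.26 for the mean of the restricted isoforms and by -0.69 for Cox6a2.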

How the results depend on the processing

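The count of 5 members called between regions stood beside 2600 lower and 2485 higher of all clusters. It became 9 with a filter above the median level (2360 lower and 1933 higher of all clusters kept). It was 13 after further quantile normalization (3213 and 2977 of all) and 8 after median centring (3045 and 2111). With a variance trend and robust fit it was 11, 9 lower and 2 higher in amygdala (2666 and 2474 of all). With genotype and time as a block, which pairs the regions, it was 4 (2535 and 2443 of all). That fit keeps Ndufa5 and Atp5pb, loses Ndufa1, Ndufs1 and Ndufs4 and adds Uqcrb. Leaving out each array gave 2 to 9 members, beside 2263 to 2944 lower and 2081 to 2910 higher of all clusters. Calls for late minus early in WT amygdala ran from 0 to 2, and those for the genotype difference at 1 wk from 0 to 1 (1 without the WT hippocampus array at baseline), when each array was left out. A 1.2-fold limit gave 159 single-array values. Further quantile normalization moved the member median to 0.00077 for genotype in amygdala and to 0.037 for the genotype by region interaction, whose median was 0.078 without both low arrays. The causes were not tested. No called difference changed sign under any alternative run. With time points as a block the genotype comparisons still called 0 members. Leaving out each array gave member medians of -0.12 to -0.049 for genotype in amygdala, 0.028 to 0.083 in hippocampus and -0.045 to -0.0068 between regions. The number of arrays limits what could be called.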

Other observations

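Transcript clusters annotated with several symbols, or left out by name, were measured beside the members. Cox7c, a complex IV subunit whose clusters also carry the symbol Gm12338, had amygdala minus hippocampus values of -0.21 (SE 0.069, limma adjusted p = 0.045), -0.18 (adjusted p = 0.0635) and -0.15 (adjusted p = 0.0958) on its 3 clusters, so 1 of the 3 passed. The cluster shared by Ndufs5 and Ndufs5-ps had -0.074, and the 2 clusters shared by Ndufb4 and Ndufb4b had -0.10 and -0.046; none of these passed. Cox8b, an isoform of complex IV subunit 8 known from heart and muscle, had an SD of 0.49 over 20 arrays around a mean of 6.91, with 0.29 between regions (adjusted p = 0.283) and DKO minus WT values of -0.058 in amygdala and -0.17 in hippocampus.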
